A study of Mus musculus with 18 samples.

Results

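Interferon-inducible GTPases were described in mouse bone marrow-derived macrophages (BMDMs) that had received lipopolysaccharide (LPS) once, over a long priming period, or again after priming. The 10 genes were taken by name from the count files: 4 guanylate-binding proteins (Gbp2, Gbp3, Gbp5 and Gbp7) and 6 immunity-related GTPases (Irgm1, Irgm2, Igtp, Iigp1, Ifi47 and Tgtp1). They are 10 of the 22852 gene symbols in the files, of which 15486 had a count in at least 1 library. All 10 had counts, and 9 passed the filter on low counts. Tgtp1 did not pass it and is described mainly by its counts.

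The study asked how LPS tolerance, the weakened response of macrophages to a repeated LPS dose, is affected by the platinum drug carboplatin, and sequenced RNA from 6 groups of 3 libraries. The cells were grown from bone marrow of female C57BL/6 mice in medium with L929 cell conditioned supernatant, which supplies the macrophage growth factor, and all groups shared this background. Unstimulated cells received no LPS. LPS-primed cells received 100 ng/ml LPS for 24 h. LPS-tolerant cells were primed in the same way, and their medium was then replaced by fresh medium with 10 ng/ml LPS for 3 h. LPS-stimulated cells received only the 10 ng/ml dose, for 3 h. The LPS-primed + carboplatin and LPS-tolerant + carboplatin groups were pretreated with 25 µM carboplatin 1 h before priming by the study's methods, while the labels name LPS first. The ages of the mice and the time at which unstimulated cells were harvested are not given in the sources used here. The study describes its replicates as biological, but the labels give no animal. LPS-primed and LPS-stimulated cells differ in dose, in time and in the handling of the medium, so these cannot be told apart.

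Interferon-inducible GTPases are large GTP-binding proteins with which a cell attacks microbes that live inside it. Guanylate-binding proteins (GBPs) coat bacteria and pathogen vacuoles and help to trigger inflammasomes, the complexes that activate inflammatory caspases. Immunity-related GTPases (IRGs) fall into effectors, which load onto pathogen vacuoles and break them (Iigp1, Tgtp1, Ifi47), and regulators, which sit on the cell's own membranes and hold the effectors inactive (Irgm1, Irgm2, Igtp). Interferon gamma induces both families strongly, and in macrophages LPS induces them through interferon beta made by the cells themselves and, for some members, more directly.

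The genes lie in clusters. By GENCODE on GRCm39, the 4 GBP genes lie on the plus strand of chromosome 3, from chr3:142199739-142228105 (Gbp5) over chr3:142236044-142255910 (Gbp7) and chr3:142265731-142278979 (Gbp3) to chr3:142326349-142343779 (Gbp2). Irgm1 lies on the minus strand at chr11:48752795-48763164 and Tgtp1, also on the minus strand, at chr11:48876154-48884999. Ifi47 follows on the plus strand at chr11:48967412-48987813. Igtp (chr11:58089840-58098417) and Irgm2 (chr11:58090444-58113615) overlap each other on the plus strand. Igtp and Irgm2 share 162 exon bases, 3.55% of the exon bases of Igtp and 4.33% of those of Irgm2. Antisense long noncoding genes overlap 7.82% of the exon bases of Gbp5, 5.13% of Gbp7, 7.82% of Irgm1, 7.72% of Irgm2 and 12.7% of Ifi47, and the strand setting of the counting is not given in the sources used here. Of the 150-base stretches of Tgtp1 transcripts, the length of 1 read, 66.6% also occur unchanged in Tgtp2 or in Gm12185, so that counts of Tgtp1 are uncertain. The shares of such stretches were 7.26% for Gbp7, all with the pseudogene Gm43802, 1.03% for Igtp, 1.40% for Irgm2, and 0 for the other 6 members.

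Promoters of 9 of the 10 members were found in the RefSeq table (GRCm38.p6), with 2 promoters for Gbp3. The stretches below hold matches of 3 motifs in the 250 bases before the RefSeq start, and are shown because the members were chosen as interferon-inducible. The gamma interferon-activated site (GAS, a motif of genes induced by interferon gamma) was searched as TTCNNNGAA. The interferon-stimulated response element (ISRE, bound by IRF factors) was searched as GAAANNGAAA and, for the other strand, TTTCNNTTTC. The NF-κB consensus was searched on both strands. Each stretch has 30 bases and is written 5′ to 3′ on the strand of the gene, with matches in capitals. Coordinates are on GRCm39, where each stretch was placed by exact match. By GENCODE, whose gene starts differ from those of RefSeq, the stretches of Gbp2, Gbp3, Irgm1 and Igtp and the NF-κB and GAS stretches of Gbp5 lie wholly within exons of the same gene, those of Tgtp1 and the ISRE stretches of Gbp5 and Gbp7 lie partly within them, and the others lie outside.
Gbp5 ISRE, chr3:142202520-142202549 (+): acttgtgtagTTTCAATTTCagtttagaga
Gbp5 NF-κB, chr3:142202608-142202637 (+): ggagaggaaaGGAAATTCCCagggctggcc
Gbp5 GAS, chr3:142202633-142202662 (+): tggccgttatTTCTCAGAAccaagcacaga
Gbp7 GAS pair, chr3:142235990-142236019 (+): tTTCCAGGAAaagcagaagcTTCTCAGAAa
Gbp7 ISRE, chr3:142236034-142236063 (+): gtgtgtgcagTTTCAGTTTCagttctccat
Gbp3 overlapping ISRE pair, chr3:142265753-142265782 (+): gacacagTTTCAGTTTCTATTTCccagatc
Gbp2 ISRE, chr3:142326355-142326384 (+): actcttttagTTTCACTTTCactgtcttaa
Irgm1 overlapping ISRE pair, chr11:48762255-48762284 (-): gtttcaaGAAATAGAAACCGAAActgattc
Tgtp1 GAS and ISRE, chr11:48883136-48883165 (-): ccatTTCCAGGAAtcGAAACTGAAAcctac
Igtp GAS and ISRE, chr11:58090333-58090362 (+): ccatTTCTAGGAActGAAACTGAAAgctgt
Irgm2 GAS and ISRE, chr11:58105724-58105753 (+): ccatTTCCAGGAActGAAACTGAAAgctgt

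An ISRE match was present for 8 of the 9 members, against 2.98% of the 32851 promoters in the table. A GAS match was present for 5 of the 9, against 7.02% of all promoters, and both together for the same number of members against 0.332%. The NF-κB consensus was present only before Gbp5, at 77 to 68 bases before the start, against 3.90% of all promoters. In Igtp, Irgm2 and Tgtp1 the GAS match is followed by the ISRE match after a gap of a few bases, and the promoters of Igtp and Irgm2 share an unbroken run of 55 bases. No match was found in this window for Ifi47. A match describes letters and does not show that a factor was bound.

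The 18 libraries held between 6869667 and 14708099 read pairs counted on genes (median 8986463). Between 41.5 and 46.9% of all pairs of a library were not assigned to a gene, which includes 4.21 to 5.18% that were not unique. Of 8 macrophage marker genes none was at 0 in any group. Their summed level was 149500 to 168600 normalized counts in unstimulated and 142000 to 178700 in LPS-stimulated libraries, against 274100 to 277300 in primed, 249600 to 304600 in tolerant and 220000 to 282200 in the carboplatin libraries. The highest count of 1 marker in an unstimulated library was 106441 read pairs, so that 1 gene can make up much of a sum. Of the 8 genes, 5 were higher in LPS-primed and 4 in LPS-tolerant than in LPS-stimulated cells. Of all genes 22% and 16.2% were called higher there. In each comparison 1 of the 8 was lower, against 22.6% and 18.3% of all genes. Of 10 T and NK cell markers 7 were at 0 in all 18 libraries, among them Cd3e and Ncr1, and their sum ran from 0 to 15.6. Of 6 B cell markers Pax5 was at 0 in all libraries, whereas Ighm was found at 255 to 1542 in unstimulated, at 69.2 to 271 in LPS-stimulated and at 0 to 9.19 in all other libraries. The neutrophil list summed to 8.18 to 15.6 in unstimulated, 40.8 to 120.3 in LPS-stimulated and 84.3 to 543 in the other libraries, most of it S100a8, while Ly6g and Mpo were at 0 in all libraries. A stromal list of 6 genes summed to 103 to 147 in LPS-stimulated, 3.64 to 5.74 in unstimulated and 19.3 to 73.4 in the other libraries, and a dendritic cell list of 6 genes to 13.1 to 21.7 in LPS-stimulated and 1.31 to 13.5 in all other libraries. The part of these markers in the results was not tested. In bulk RNA, fewer cells of a type and less RNA per cell cannot be told apart.

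Values below are normalized counts, that is, read pairs scaled by TMM (a scaling by the trimmed mean of gene ratios) to 1 common library of average size. Means are given with their SD over n = 3 libraries. Log2 fold changes are given with their standard error (SE), and an adjusted p comes from the quasi-likelihood test of edgeR, corrected by the method of Benjamini and Hochberg over all 11305 genes tested. A gene rose or fell where its adjusted p was under 0.05.

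Gbp5, which in mouse macrophages promotes assembly of the NLRP3 inflammasome, moved most of all members. It measured 108, 42.6 and 76.3 in the 3 unstimulated libraries and 5052, 6134 and 5974 in the LPS-stimulated libraries. After priming it measured 84.7, 158 and 109, and in tolerant cells 31.6, 61.3 and 35.0. Only the LPS-stimulated group stood clear of the others. A single 3 h dose raised Gbp5 by 6.25 ± 0.50 (SE) on the log2 scale, or 75.9-fold (adjusted p = 3.11e-08), the 119th highest log2 fold change of the 11305 genes. Per kilobase of exon Gbp5 was among the lowest members before LPS, at 10.4 ± 4.5. After the single dose it was second only to Gbp2, at 785 ± 80 against 1195 ± 43.8. Exon length here merges all GENCODE transcripts of a gene, 7290 bases for Gbp5 and 2561 for Gbp2. By normalized counts alone Gbp5 was above Gbp2 after the single dose, at a mean of 5720 against 3060.

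Gbp2, which is recruited to the vacuole of Toxoplasma and to cytosolic bacteria, had the highest level per kilobase of exon of the 4 GBP genes in every group. It measured 953, 344 and 539 in unstimulated and 3048, 2954 and 3178 in LPS-stimulated cells. In primed cells it measured 605, 982 and 731, and in tolerant cells 508, 653 and 469. The single dose raised Gbp2 by 2.32 ± 0.32 (SE; adjusted p = 1.32e-05), while primed and tolerant libraries overlapped with unstimulated ones.

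Gbp3, its neighbour in the cluster, measured 494, 206 and 371 in unstimulated cells and 1904, 1821 and 1599 in LPS-stimulated cells. Its primed libraries were at 224, 421 and 261, and its tolerant libraries at 113, 142 and 107. All 3 tolerant libraries lay below all unstimulated and all primed ones. The single dose raised Gbp3 by 2.31 ± 0.39 (SE; adjusted p = 0.000112).

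Gbp7, which takes part in defence against intracellular bacteria, was the one member raised by priming itself. It measured 54.5, 69.7 and 96.3 in unstimulated, 277, 535 and 511 in LPS-stimulated and 87.8, 240.4 and 174 in primed cells. Its tolerant libraries were at 78.5, 105 and 84.4, close to the unstimulated ones. The single dose raised Gbp7 by 2.58 ± 0.38 (SE; adjusted p = 2.66e-05). Priming raised it by 1.18 ± 0.37 (SE; adjusted p = 0.0255), with 1 primed library inside the unstimulated range. The call for priming was lost without unstimulated replicate 1 or 2 or LPS-primed replicate 2 or 3, where the adjusted p was 0.0638 to 0.143.

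Of the 5 IRG genes tested, Irgm2 and Igtp rose after the single dose. Irgm2, a regulator that also restrains caspase-11, measured 329, 155 and 303 in unstimulated cells and 455, 893 and 536 in LPS-stimulated cells, without overlap. Irgm2 rose by 1.26 ± 0.32 (SE; adjusted p = 0.00328). Igtp, a regulator also known as Irgm3, measured 512, 206 and 335 before and 521, 832 and 503 after the single dose, so that the groups overlapped. Igtp rose by 0.82 ± 0.30 (SE; adjusted p = 0.0308), and this call was lost without unstimulated replicate 2 or 3 or LPS-stimulated replicate 2 (adjusted p = 0.069 to 0.177).

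Irgm1, the regulator needed for control of mycobacteria, did not pass the test. It measured 2062, 820 and 1219 in unstimulated and 1219, 1869 and 1158 in LPS-stimulated cells, a log2 fold change of 0.05 with a 95% interval of -0.64 to 0.74. Ifi47, an IRG of the effector type, measured 1230, 425 and 776 in unstimulated and 835, 1200 and 715 in LPS-stimulated cells. Its log2 fold change was 0.18, with a 95% interval of -0.63 to 0.99. For both genes the groups overlapped widely, and scaling by library size alone gave a negative sign. The upper bounds of both intervals lie below the 1.26 of Irgm2, but the 95% interval of Irgm2, 0.59 to 1.94, overlaps both. Differences between genes were not tested.

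Few read pairs were counted for the effector genes Iigp1 and Tgtp1. For Tgtp1, whose sequence is mostly shared with other genes, a low count does not show low expression. Iigp1, which lies on chromosome 18 and loads onto Toxoplasma vacuoles, had 33, 12 and 26 read pairs in unstimulated and 30, 70 and 13 in LPS-stimulated libraries. Its log2 fold change of 0.59 had a 95% interval of -1.16 to 2.35, so that neither a rise nor a fall was detectable at this depth. Tgtp1 had 7, 3 and 6 read pairs in unstimulated, 6, 11 and 3 in LPS-stimulated, 9, 6 and 4 in primed and 1, 4 and 9 in tolerant libraries. Its near-identical neighbour Tgtp2 had a mean of 165 ± 130 normalized counts (SD, n = 3) in unstimulated and 187 ± 88.0 in LPS-stimulated cells.

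**Figure D1:**
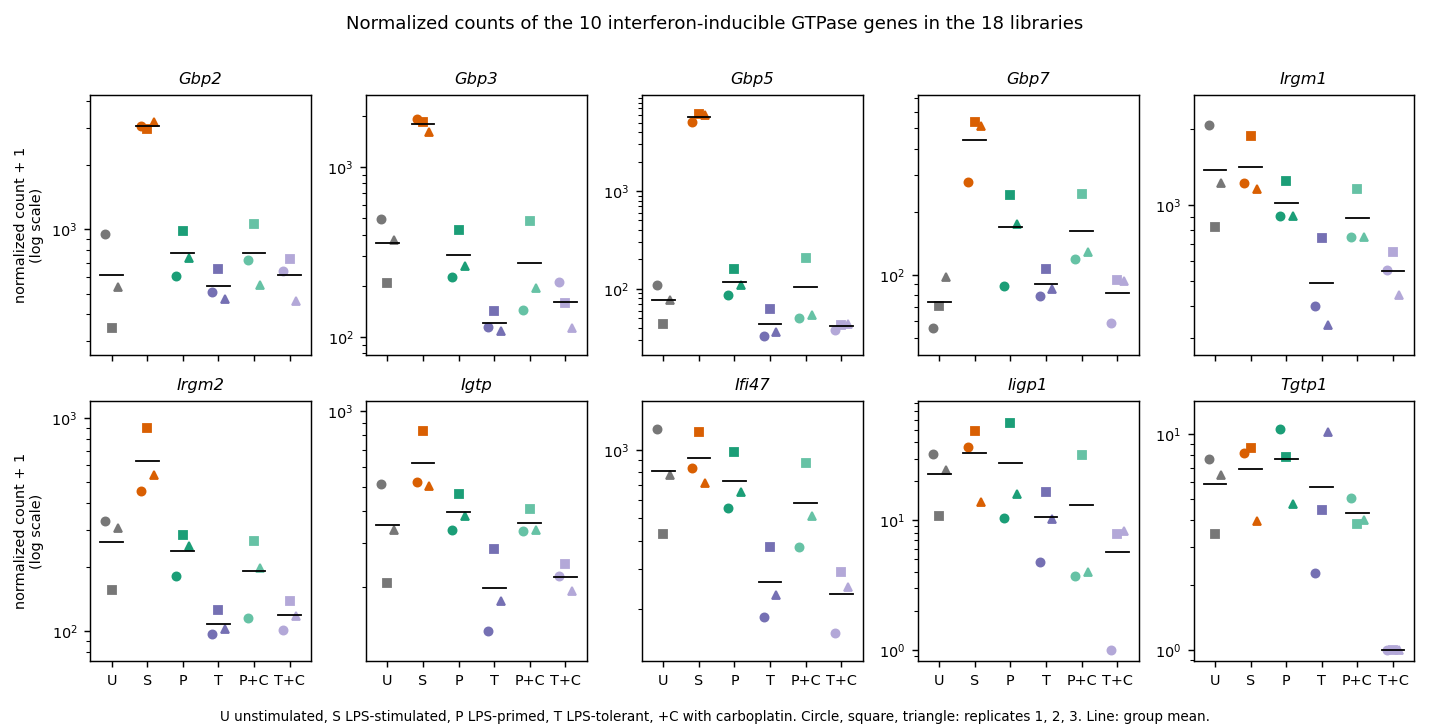
Normalized counts of the 10 genes plus 1 (log axis) in each of the 18 libraries, by group (U unstimulated, S LPS-stimulated, P LPS-primed, T LPS-tolerant, +C with carboplatin), with replicates 1, 2 and 3 as circle, square and triangle and a line at the group mean. For Gbp2, Gbp3 and Gbp5 the 3 LPS-stimulated libraries stand above all others, as for Gbp5 at 5052 to 6134 against at most 204. Replicate 2 is the highest for most genes in every group but the unstimulated one.

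In the comparison of LPS-stimulated with unstimulated cells, 6 of the 9 members tested thus rose and none fell, while 51.2% of all genes tested were called in either direction and 24.3% were called higher. All 4 GBP genes rose, by 2.31 to 6.25, and 2 of the 5 IRG genes tested rose, with a range over the 5 genes of 0.05 to 1.26. The median log2 fold change over the 9 members was 1.26, against -0.09 over all genes. Under the limits used by the study, an absolute log2 fold change over 2 with an adjusted p under 0.05, the 4 GBP genes were called, against 12% of all genes. Together, the 10 genes took 0.0287 to 0.0720% of the read pairs on genes in unstimulated libraries and 0.135 to 0.160% in LPS-stimulated libraries.

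At 24 h of priming, of the 9 members tested, Gbp7 rose and none fell, against 25.2% of all genes called and 12.1% called higher. The other 8 had log2 fold changes between -0.43 (Irgm1) and 0.64 (Gbp5), and the median over the 9 was 0.17 against -0.02 over all genes. The 95% interval was -0.31 to 0.98 for Gbp2, -1.05 to 0.56 for Gbp3 and -0.29 to 1.56 for Gbp5, below their rise after the single dose. Under the study's limits no member was called, against 7.47% of all genes.

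Against LPS-stimulated cells, LPS-primed cells were lower in 5 of 9 members, where 44.6% of all genes were called and 22.6% were called lower. The 5 were Gbp5 (-5.61 ± 0.48 SE; adjusted p = 1.32e-07), Gbp3 (-2.56 ± 0.40), Gbp2 (-1.99 ± 0.31), Irgm2 (-1.41 ± 0.32) and Gbp7 (-1.40 ± 0.36). Igtp was lower in all 3 primed libraries than in any LPS-stimulated one, with a log2 fold change of -0.65 and an adjusted p of 0.09. Under the study's limits Gbp3 and Gbp5 were called, against 9.81% of all genes. Dose, time and medium change cannot be told apart here.

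No member rose with the dose of LPS that followed priming. The second dose came with a change of medium, and these cannot be told apart. From LPS-primed to LPS-tolerant cells all 9 members had negative log2 fold changes, from -0.51 (Gbp2) to -1.47 (Ifi47), with a median of -1.14 against -0.01 over all genes. Irgm2 and Ifi47 passed the test, 2 of 9 against 6.31% of all genes called and 2.71% called lower. Irgm2 fell from 181, 280.3 and 250.4 in primed to 96.2, 124 and 102 in tolerant libraries, a log2 fold change of -1.14 ± 0.33 (SE; adjusted p = 0.0492). Ifi47 fell from 557, 982 and 654 to 184, 374 and 229, a log2 fold change of -1.47 ± 0.40 (SE; adjusted p = 0.0347). For both genes all tolerant libraries lay below all primed ones.

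Same-numbered libraries deviated together in these groups, and with the replicate number as a block 7 of the 9 members fell from LPS-primed to LPS-tolerant cells, where 8.32% of all genes were called lower. Beside Irgm2 (adjusted p = 0.0125) and Ifi47 (0.00637), the block called Gbp3 (log2 fold change -1.31; adjusted p = 0.0192), Gbp5 (-1.44; 0.0229), Gbp7 (-0.84; 0.0162), Irgm1 (-1.09; 0.0108) and Igtp (-1.01; 0.0175). Irgm1 stood at 906, 1237 and 906 in primed and at 400.1, 738 and 335 in tolerant libraries. Igtp stood at 338, 469 and 382 in primed and at 133, 282 and 176 in tolerant libraries. All tolerant libraries of these 2 genes lay below all primed ones, and every numbered pair was lower in the tolerant library for each of the 9 members.
Without the block the calls for Irgm2 and Ifi47 were close to the threshold. Leaving out LPS-primed replicate 2 or 3 or LPS-tolerant replicate 1 or 3 ended both, with adjusted p of 0.131 to 0.151 for Irgm2 and 0.0742 to 0.136 for Ifi47, and leaving out LPS-tolerant replicate 2 ended that of Irgm2 (0.0852) while Irgm1 (0.0257) and Igtp (0.0285) then passed. In the fits that ended a call, log2 fold changes ran from -1.001 to -1.258 for Irgm2 and from -1.201 to -1.547 for Ifi47. With all libraries they were -1.14 and -1.47, and the sign did not change. The weakest of these values came without LPS-primed replicate 2 for both genes. Under the study's limits no member was called, against 0.681% of all genes.

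After the same 10 ng/ml dose for 3 h, tolerant cells held less of nearly every member than LPS-stimulated cells. Of the 9 tested, 8 were lower, against 34.5% of all genes called and 18.3% called lower, and the median log2 fold change was -2.30 against 0.00 over all genes. Gbp5 was lower by the most, at -7.04 ± 0.52 (SE; adjusted p = 3.29e-08), or 132-fold lower. Gbp3 (-3.88 ± 0.42), Irgm2 (-2.54 ± 0.34), Gbp2 (-2.49 ± 0.32) and Gbp7 (-2.30 ± 0.37) followed. Ifi47 (-1.80 ± 0.40), Igtp (-1.65 ± 0.31) and Irgm1 (-1.53 ± 0.34) were lower by less, and in each of these 8 genes the 3 tolerant libraries lay below the 3 LPS-stimulated ones. The first 5 were called under the study's limits too, against 8.04% of all genes. Iigp1 had 3, 18 and 9 read pairs in the tolerant libraries and a log2 fold change of -1.71 (adjusted p = 0.154). The 10 genes together took 0.0150 to 0.0255% of the read pairs of tolerant libraries, less than in any unstimulated library.

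**Figure D2:**
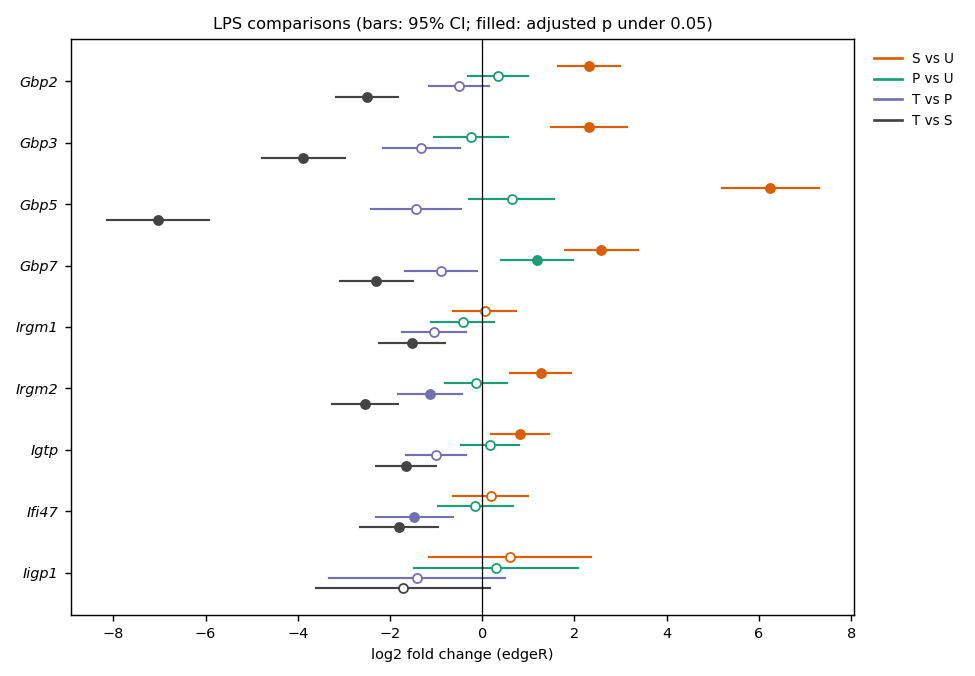
Log2 fold changes (horizontal axis, edgeR) of the 9 members tested in 4 LPS comparisons (S LPS-stimulated, U unstimulated, P LPS-primed, T LPS-tolerant), with 95% confidence intervals and filled points where the adjusted p was under 0.05. The 4 GBP genes lie at 2.31 to 6.25 after the single dose, and the second dose gives negative values for all 9 genes.

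The change from LPS-primed to LPS-tolerant was set directly against the change from unstimulated to LPS-stimulated cells, which uses 4 groups that share no library. After priming the dose came with a change of medium, so the difference cannot be assigned to the dose alone. The difference was negative for all 9 members tested and passed the test in 7, against 23.8% of all genes called and 13.3% called lower. It was -7.68 ± 0.66 (SE) for Gbp5 (adjusted p = 2.3e-07), -3.64 ± 0.56 for Gbp3, -3.48 ± 0.52 for Gbp7 and -2.83 ± 0.44 for Gbp2. Among the IRG genes it was -2.40 ± 0.46 for Irgm2 (adjusted p = 0.000928), -1.82 ± 0.43 for Igtp (0.00497) and -1.65 ± 0.55 for Ifi47 (0.0369). It was -1.10 ± 0.47 for Irgm1 (adjusted p = 0.103, and 0.0338 with the block, which called 8 members and 19% of all genes lower) and -2.01 ± 1.23 for Iigp1 (adjusted p = 0.27). The call for Ifi47 was lost on leaving out any 1 of unstimulated replicates 2 and 3, LPS-primed replicates 2 and 3, LPS-tolerant replicates 1 and 3 and LPS-stimulated replicate 2, with adjusted p of 0.05 to 0.1. That for Irgm1 was gained without unstimulated replicate 1 (0.0196) or LPS-tolerant replicate 2 (0.0228).

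**Figure D3:**
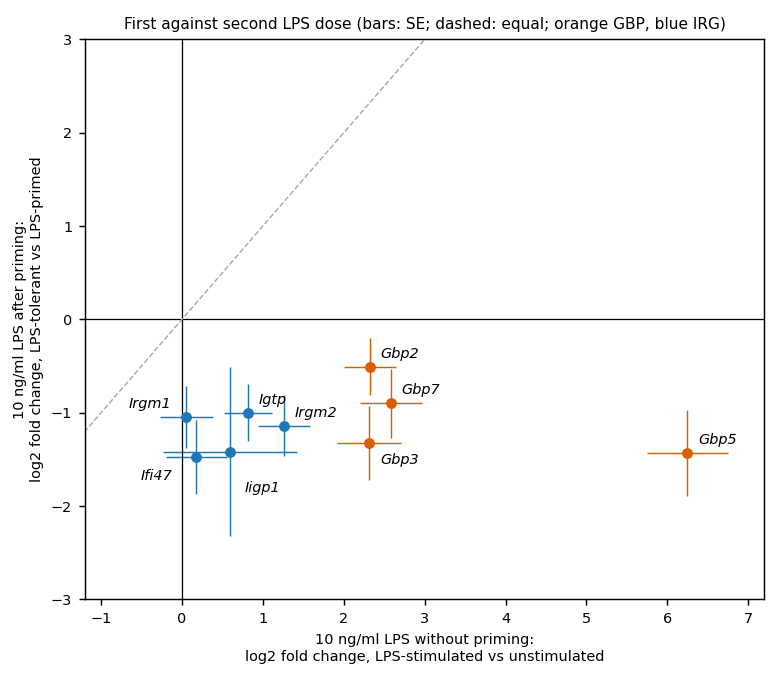
Log2 fold change, unstimulated to LPS-stimulated (horizontal axis) against LPS-primed to LPS-tolerant (vertical axis), for the 9 members tested, with SE bars. After priming the 10 ng/ml LPS dose came with a change of medium. GBP genes are orange, IRG genes blue, and the dashed line marks equal change. The points spread from 0.05 to 6.25 on the horizontal axis and from -0.51 to -1.47 on the vertical axis, all below the dashed line.

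None of the 9 members tested passed the test for carboplatin, and Tgtp1 was not in it. The study, under its own limits, lists Tgtp1 among the genes lowered by carboplatin in tolerant cells. In primed cells 0 of 9 were called by edgeR, against 0.372% of all genes, and none had an unadjusted p under 0.05 (lowest 0.251, Iigp1). In tolerant cells 0 of 9 were called, against 0.425% of all genes, and again none had an unadjusted p under 0.05 (lowest 0.338, Gbp3). DESeq2, limma-voom and the replicate block likewise called none in either comparison. Gbp5 measured 50.0, 204 and 53.3 in primed cells with carboplatin and 36.7, 42.1 and 43.2 in tolerant cells with carboplatin. Gbp2 measured 716, 1065 and 549 in primed and 640, 723 and 461 in tolerant cells with the drug. Both genes overlapped with the groups without carboplatin.

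The 95% intervals of the carboplatin effect were wide relative to its size. In primed cells the interval was -0.64 to 0.65 for Gbp2, -0.95 to 0.67 for Gbp3, -1.08 to 0.74 for Gbp5 and -0.80 to 0.72 for Gbp7. For the regulators it was -0.89 to 0.49 (Irgm1), -0.98 to 0.38 (Irgm2) and -0.78 to 0.50 (Igtp), and for Ifi47 -1.13 to 0.50. In tolerant cells it was -0.49 to 0.81 for Gbp2, -0.45 to 1.24 for Gbp3, -1.13 to 0.96 for Gbp5 and -0.94 to 0.65 for Gbp7. It was -0.55 to 0.85 for Irgm1, -0.57 to 0.84 for Irgm2, -0.50 to 0.80 for Igtp and -1.02 to 0.66 for Ifi47. The upper bound for Gbp5 in tolerant cells, 0.96, is small beside the log2 fold change of -7.04 between tolerant and LPS-stimulated cells. For Irgm1, Igtp and Ifi47 the bounds of 0.85, 0.80 and 0.66 stood beside smaller differences of -1.53, -1.65 and -1.80. For Gbp2, Gbp3, Gbp7 and Irgm2 the bounds were 0.65 to 1.24, beside differences of -2.30 to -3.88.

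The averages over primed and tolerant cells gave 0 of 9 called as well, against 1.99% of all genes, with a lowest unadjusted p of 0.16. The difference between the carboplatin effects in the 2 states was called for 0 of 9 members and for 0 of all genes by edgeR (131 genes with an unadjusted p under 0.05, none of them a member, and 0 calls by DESeq2 and limma-voom).

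The effectors Iigp1 and Tgtp1, with few counted pairs, had their lowest mean in LPS-tolerant + carboplatin cells. The same held for Ifi47 and Gbp5. Gbp2, Gbp3, Irgm1, Irgm2 and Igtp had their lowest mean in tolerant cells without the drug, and Gbp7 in unstimulated cells. Iigp1 had 9, 49 and 16 read pairs in primed and 2, 33 and 3 in primed cells with carboplatin, a log2 fold change of -1.05 with a 95% interval of -2.92 to 0.82. It had 0, 6 and 8 read pairs in tolerant cells with carboplatin, a log2 fold change of -0.97 (interval -3.19 to 1.25). Tgtp1 had 3, 3 and 3 read pairs in primed cells with carboplatin and 0, 0 and 0 in tolerant cells with carboplatin. In a fit without the filter Tgtp1 had a log2 fold change of -5.28 in tolerant cells (adjusted p = 0.172) and of -3.14 for the mean over both states (adjusted p = 0.067), above 0.05 but within the study's limits for carboplatin, which allow an adjusted p of up to 0.25. A fold fitted against libraries at 0 depends on the prior count and is no bound, the tolerant libraries without the drug held only 1, 4 and 9 pairs, and most of its sequence is shared with other genes.

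**Figure D4:**
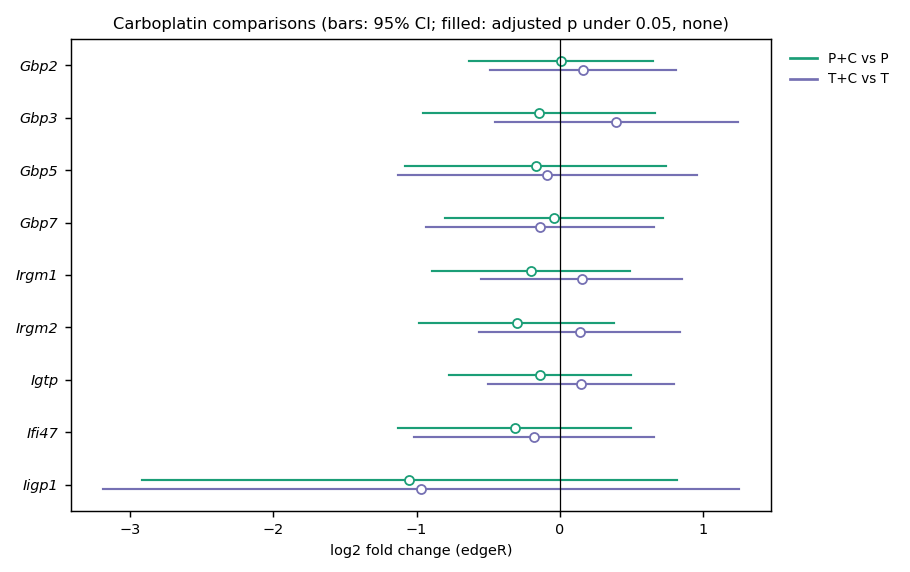
Log2 fold changes (horizontal axis, edgeR) of the 9 members tested with against without carboplatin in LPS-primed (P) and LPS-tolerant (T) cells, with 95% confidence intervals. All points are open, since none had an adjusted p under 0.05, and all 18 intervals cross 0.

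Under carboplatin the second dose again gave negative values. From primed to tolerant cells with carboplatin all 9 members had log2 fold changes between -1.35 (Gbp5) and -0.36 (Gbp2), with a median of -0.78 against -0.01 over all genes. None passed the test, against 1.98% of all genes, while 5 had an unadjusted p under 0.05. With the block Gbp7 (-0.98; adjusted p = 0.0124) and Ifi47 (-1.30; adjusted p = 0.0242) fell, 2 of 9 against 3.92% of all genes called lower. Ifi47 measured 373, 874 and 510.2 in primed and 156, 290.3 and 249 in tolerant cells with carboplatin, without overlap. DESeq2 called 1 member.

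LPS-stimulated cells had the highest mean of all groups for each member but Tgtp1. The order below them differed between members. For Gbp3, Irgm1, Irgm2 and Ifi47 it ran from unstimulated over primed and primed + carboplatin to the 2 tolerant groups, whereas for Gbp2, Gbp5 and Igtp both primed groups came before the unstimulated one. For Gbp7 the order was primed (167 ± 76.5, SD, n = 3), primed + carboplatin (162 ± 68.6), tolerant (89.4 ± 14.1), tolerant + carboplatin (81.0 ± 20.2) and unstimulated (73.5 ± 21.2), so that the unstimulated group was last. Irgm1 ran from 1416 ± 394 in LPS-stimulated and 1367 ± 634 in unstimulated to 491 ± 217 in tolerant cells. Ifi47 ran from 917 ± 253 in LPS-stimulated and 810.3 ± 404 in unstimulated to 262 ± 99.5 in tolerant and 232 ± 68.8 in tolerant + carboplatin cells. The 2 tolerant groups overlapped in every member but Tgtp1.

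Compared per kilobase of exon, Ifi47 (285 ± 142), Gbp2 (239 ± 121) and Irgm1 (215 ± 99.8) were the most abundant members in unstimulated cells. They were followed by Gbp3 (84.1 ± 34.0), Igtp (77.1 ± 33.7) and Irgm2 (70.05 ± 25.1). The order depends on the merged exon length. By normalized counts alone Irgm1 (mean 1367) came before Ifi47 (810) and Gbp2 (612) in unstimulated cells. In tolerant cells Gbp2 (212 ± 37.8) led over Ifi47 (92.1 ± 35.0) and Irgm1 (77.2 ± 34.1), while Gbp5 was at 5.85 ± 2.23. The SD ranges of the leading 3 overlapped, except for Gbp2 in tolerant cells, which stood clear. Iigp1 stayed at or below 5.08 and Tgtp1 at or below 2.05 per kilobase in every group, though the counts of Tgtp1 are uncertain.

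Within a group the members moved together. Replicate 2 was the highest for 9 of 10 members in LPS-primed, in LPS-primed + carboplatin and in LPS-tolerant cells, for 8 in LPS-stimulated and for 6 in LPS-tolerant + carboplatin cells. In unstimulated cells replicate 1 was the highest for 9 of 10 and replicate 2 for none. The median SD within a group (log2) was 0.66 for the members tested against 0.27 for all genes in unstimulated cells, 0.60 against 0.26 in LPS-primed + carboplatin cells and 0.38 against 0.30 in LPS-stimulated cells. Usp18, an interferon-induced inhibitor of interferon receptor signalling, measured 1033, 198 and 402 in the 3 unstimulated libraries, in the same order as 9 of the members. What sets these libraries apart was not tested.

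Across the 18 libraries, Pearson's r of log2 values between members had a median of 0.90 within the GBP genes (6 pairs), 0.87 within the IRG genes tested (10 pairs) and 0.68 between the families (20 pairs). After the group means were taken off, the medians were 0.70, 0.81 and 0.69. The libraries are shared by all pairs, so these values describe the data and carry no test. The genes outside the families whose pattern was most like the mean of the members over the 18 libraries were Ifit1 (r = 0.98), Parp9 (0.97), Znfx1 (0.97), Ifih1 (0.97), Trim30c (0.96), Parp14 (0.95), Slfn8 (0.94), Apobec3 (0.94), Trim30a (0.93) and Rsad2 (0.93).

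A list of other interferon-inducible GTPases and genes related to them held 31 symbols, of which 19 were matched and 14 were tested. Induction by interferon itself was not tested for any of them. After the single dose 3 of the 14 rose and 4 fell, a share near that of all genes (24.3% higher and 26.9% lower). Gbp6 (2.31 ± 0.44 SE), Irgq (1.74 ± 0.32) and Gm12250 (1.35 ± 0.48), the gene of the effector Irgb10, rose, whereas Gbp8 (-3.78, adjusted p = 0.0159), the IRG-related 9930111J21Rik1 (-2.45 ± 0.63) and Gm5431 (-1.48 ± 0.56), and the giant GTPase gene Gvin3 (-1.35 ± 0.54) fell. The second dose gave negative values in all 14, of which Gm5431 (-2.48 ± 0.59), Gvin3 (-2.20 ± 0.58) and Gm12250 (-1.80 ± 0.51) passed the test where 2.71% of all genes were called lower, and 5 passed with the block, which called 8.32% lower. In priming Gbp6 rose (2.07 ± 0.44) and Gbp9 fell (-1.43 ± 0.38). That is 1 of 14 in each direction, against 12.1% of all genes called higher and 13.1% called lower. Tolerant cells were lower than LPS-stimulated cells in 7 of 14 and higher in none, where 34.5% of all genes were called and 18.3% were called lower.

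Genes of interferon signalling, 22 of which were tested from a list of 24, were set beside the members. Ifng had no read pair in any of the 18 libraries, and each count of 0 allows up to 3 pairs. Ifnb1, the interferon made by the macrophages themselves, had 24, 14 and 5 pairs in LPS-stimulated libraries, 0 in each unstimulated library and at most 6 elsewhere, too few for the test. After the single dose 9 of the 22 rose and 3 fell, where 51.2% of all genes were called and 24.3% were called higher.

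Irf1, a transcription factor that acts on many of the member genes, measured 558, 524 and 564 in unstimulated, 2395, 2004 and 1544 in LPS-stimulated, 351, 695 and 512 in primed and 242, 296 and 298 in tolerant cells. It rose after the single dose (1.85 ± 0.23 SE; adjusted p = 4.84e-06) and fell with the second (-0.90 ± 0.23; adjusted p = 0.0275). Its LPS-stimulated libraries were the highest of all, as for the GBP genes. Jak2, a kinase of the interferon gamma receptor, rose by 5.04 ± 0.28 and Socs1, which inhibits such kinases, by 5.51 ± 0.85 after the single dose. Irf8, a macrophage factor that can act with Irf1, fell by 2.35 on the log2 scale (SE 0.16; adjusted p = 3.88e-09).

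Stat2, a transcription factor of type I interferon signalling, was among the 10 of 22 genes that did not pass the test after the single dose. Its log2 fold change was 0.13 (adjusted p = 0.749). From primed to tolerant cells Stat2 fell by 1.15 (SE 0.30; adjusted p = 0.0333). In that comparison 5 of the 22 fell and none rose, where 6.31% of all genes were called and 2.71% were called lower, with Nlrc5, an activator of MHC class I genes, at -1.30 ± 0.20 and the receptor gene Ifngr1 at -0.78 ± 0.20 (adjusted p = 0.0303). With priming 8 of the 22 rose and 0 fell, where 25.2% of all genes were called and 12.1% were called higher. Between tolerant and LPS-stimulated cells 11 of the 22 were lower and 4 higher in tolerant cells, against 18.3% and 16.2% of all genes. Irf7, which amplifies type I interferon production, rose with priming (1.85 ± 0.53, adjusted p = 0.0163). It was among the 4 that were higher in tolerant than in LPS-stimulated cells (1.63 ± 0.53, adjusted p = 0.0239).

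**Figure D5:**
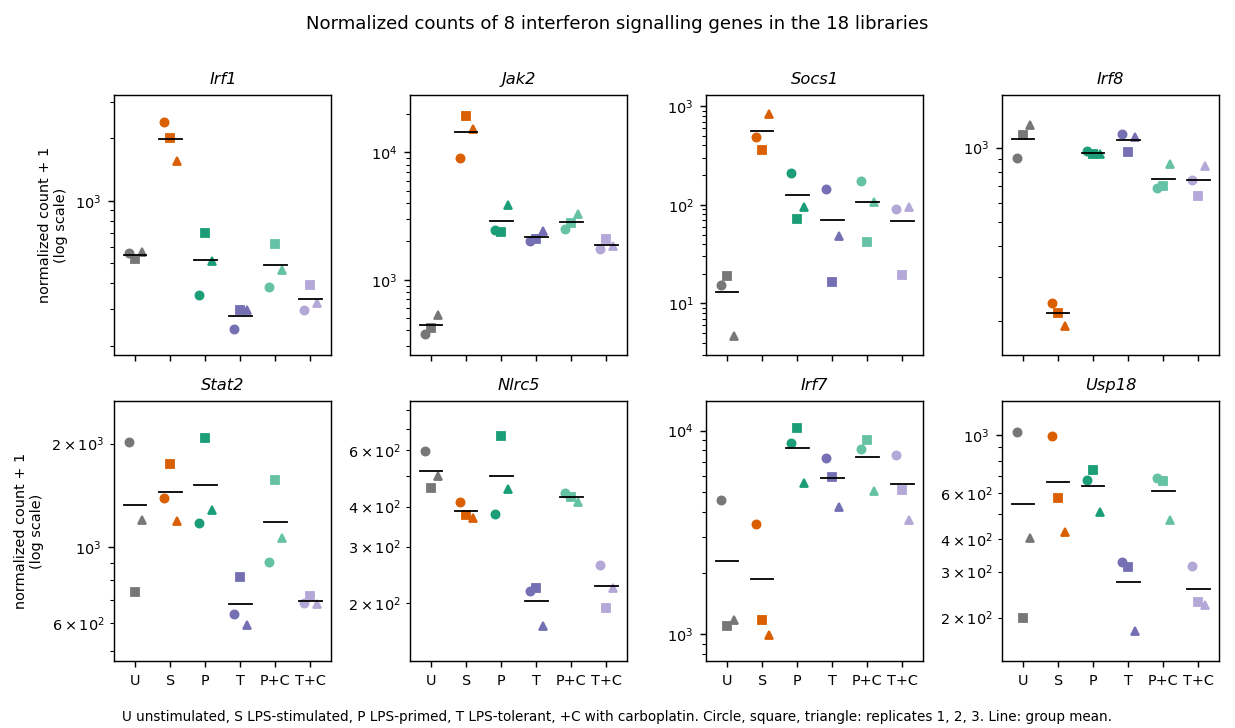
Normalized counts plus 1 (log axis) of 8 interferon signalling genes in the 18 libraries, drawn as for the members. Irf1, Jak2 and Socs1 are highest in LPS-stimulated cells (Irf1 1544 to 2395), Irf8 is lowest there (190 to 235), Stat2 of unstimulated and LPS-stimulated cells overlaps, and Irf7 is highest on average in the primed groups.

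Partners and effectors of the GTPases came from a list of 24 genes, 23 of which were tested. After the single dose 10 of the 23 rose and 5 fell, where 51.2% of all genes were called and 24.3% were called higher. Casp4, the gene of caspase-11, which senses LPS that GBPs expose on bacteria, rose by 2.36 ± 0.31 (SE; adjusted p = 9.36e-06), and Nlrp3 by 4.24 ± 0.19. Trim21, a ubiquitin ligase, rose by 0.91 ± 0.26, and Gsdmd, the pore former cut by caspase-11, by 0.67 ± 0.20. The DNA sensor Aim2 fell by 0.65 (SE 0.18; adjusted p = 0.00543).
With the second dose 2 of the 23 rose and 3 fell, where 6.31% of all genes were called and 2.71% were called lower. Nlrp3 rose again by 1.45 ± 0.17 (SE; adjusted p = 8.55e-05) and the autophagy receptor gene Sqstm1 by 0.93 ± 0.17, whereas Casp4 (-1.21 ± 0.31; adjusted p = 0.0255), Casp1 (-0.78 ± 0.16) and the kinase gene Pim1 (-1.79 ± 0.20) fell. Casp4 stood at 667, 950.2 and 665 in primed and 396, 358 and 234 in tolerant libraries, all lower, whereas Nlrp3 stood at 2553, 2087 and 2454 in primed and 7521, 4808 and 7111 in tolerant libraries, all higher.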

How the data were processed

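RNA from 18 cultures was sequenced as paired 150-base reads. The deposited values are raw counts of read pairs per gene symbol, which the authors obtained with HTSeq after alignment to GRCm39 by HISAT2. Versions of these tools, the annotation and the strand setting of the counting are not given in the sources used here. By the study's methods the library kit keeps strand. Rows that name no gene were left out of library sizes.

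The groups follow the sample labels. Counts were fitted with edgeR 4.0.16 (R 4.3.3) in 1 quasi-likelihood model over all 18 libraries, with TMM scaling and the filter filterByExpr (minimum count 10, minimum total 15), and each comparison was a contrast with Benjamini-Hochberg adjustment. Fold changes used a prior count of 0.125. The adjusted p-values judge a difference against the spread between these libraries. The fit was tested on simulated counts. Alternatives were DESeq2 1.42.0, limma-voom 3.58.1, other scalings and filters, a prior count of 2, fits of the compared groups alone, the study's limits (an absolute log2 fold change over 2 with an adjusted p under 0.05, or 0.25 for carboplatin), the replicate block and leaving out each library. Replicate numbers in the titles are shared by all groups. Deviations of same-numbered libraries correlated at 0.117 or more in 14 of 15 pairs of groups for every number (mean over all pairs 0.35), the exception being LPS-primed and LPS-stimulated cells (lowest 0.063), so the block is given beside results it changes.

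All 10 members are named. Tested genes of the lists of other interferon-inducible GTPases and of interferon signalling could be named, as could partners and effectors called in a comparison described, and Ifng and Ifnb1 were named after their counts were seen. The 10 genes outside the families most like the members were taken by Pearson's r over 18 libraries with the mean of the members' standardised log2 values. The members and lists were chosen with earlier results of these data known. Promoters are from RefSeq, gene positions from GENCODE vM39, and no reads were used. Some genes and sequences of the lists are not reported here.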

Additional observations from a re-analysis of the deposited data

Results flagged for a closer look

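For 7 of the 9 members tested, the change with the 10 ng/ml dose differed between cells with and without priming. The difference itself was tested (edgeR, all 18 libraries). After priming the dose came with a change of medium, and these cannot be told apart. The difference, as the change from LPS-primed to LPS-tolerant minus that from unstimulated to LPS-stimulated on the log2 scale, was -2.83 for Gbp2, -3.64 for Gbp3, -7.68 for Gbp5 and -3.48 for Gbp7. Among the IRG genes it was -2.40 for Irgm2, -1.82 for Igtp and -1.65 for Ifi47. Of all genes 23.8% passed the same test.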

How the results depend on the processing

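The alternatives left 5 to 6 members called for the single dose on leaving out 1 library at a time, 5 for LPS-primed against LPS-stimulated and 8 for LPS-tolerant against LPS-stimulated cells, and 6 to 8 for the difference between the doses. The number for LPS-primed against unstimulated cells, 1 in the report, ran from 0 to 1, and was 0 with library size alone, limma-voom and the study's limits. The number for LPS-tolerant against LPS-primed cells, 2 in the report, ran from 0 to 3 on leaving out 1 library, and was 5 with library size alone, 6 with DESeq2, 1 with limma-voom, 7 with the replicate block and 0 with the study's limits. For tolerant against primed cells with carboplatin it was 0 in the report, 1 with DESeq2 and 2 with the block. The study's limits gave 2 members for LPS-primed and 5 for LPS-tolerant against LPS-stimulated cells. The block also called Irgm1 for the difference between the doses and changed no other call. The cause of these shifts was not tested.

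Signs turned only in values that did not pass the test. With library size alone they were -0.059 for Igtp (LPS-primed against unstimulated), -0.286 for Irgm1 and -0.158 for Ifi47 (single dose) and 0.014 for Irgm1 (mean carboplatin effect). Scaling by library size alone moved the median of all genes from -0.09 to -0.43 for the single dose and from -0.02 to -0.26 for priming. With the block they were -0.011 for Irgm1 (single dose), -0.12 for Iigp1 (priming) and -0.013 for Gbp2 (carboplatin in primed cells). With limma-voom they were -0.011 for Gbp2 and 0.027 for Gbp7 (carboplatin in primed cells), and with at least 10 counts in every sample -0.002 for Igtp (mean carboplatin effect). On leaving out 1 library at a time, signs also turned in some fits. For LPS-primed against unstimulated cells the ranges were Gbp3 -0.55 to 0.076, Irgm1 -0.67 to 0.007, Irgm2 -0.40 to 0.065, Igtp -0.081 to 0.56, Iigp1 -0.80 to 0.70 and Ifi47 -0.44 to 0.29. For LPS-stimulated against unstimulated cells the ranges were Irgm1 -0.20 to 0.49 and Ifi47 -0.10 to 0.63. For LPS-primed against LPS-stimulated cells the range was Iigp1 -1.39 to 0.14. For carboplatin in primed cells the ranges were Gbp2 -0.29 to 0.22, Gbp3 -0.84 to 0.17, Gbp5 -1.18 to 0.15, Gbp7 -0.45 to 0.31 and Iigp1 -3.15 to 0.046. For the difference between the carboplatin effects the ranges were Gbp2 -0.066 to 0.45, Gbp5 -0.25 to 1.09, Gbp7 -0.45 to 0.31, Iigp1 -1.01 to 2.18 and Ifi47 -0.14 to 0.55. For the mean carboplatin effect the ranges were Gbp2 -0.065 to 0.19, Gbp3 -0.22 to 0.28, Gbp5 -0.63 to 0.059, Gbp7 -0.30 to 0.084, Irgm1 -0.15 to 0.19, Irgm2 -0.23 to 0.046 and Igtp -0.099 to 0.18. For tolerant against primed cells with carboplatin the range was Iigp1 -1.81 to 0.76. For carboplatin in tolerant cells the ranges were Gbp5 -0.25 to 0.29, Gbp7 -0.25 to 0.046, Irgm1 -0.061 to 0.58, Igtp -0.067 to 0.50 and Ifi47 -0.38 to 0.17.

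Over all genes, the calls for LPS-tolerant against LPS-primed cells numbered 713 in the report, 1127 with DESeq2, 2034 with the block, 454 with only the groups compared, and 330 without LPS-primed replicate 3. For carboplatin in primed cells they numbered 42, 121 with DESeq2, 200 with the block and 19 with only the groups compared. In tolerant cells they numbered 48, 152 with DESeq2, 24 with limma-voom, 200 with the block and 6 with only the groups compared. For tolerant against primed cells with carboplatin they numbered 224, 516 with DESeq2, 1040 with the block, 129 with only the groups compared and 75 without LPS-primed + carboplatin replicate 3. For the mean carboplatin effect they numbered 225, 425 with DESeq2 and 705 with the block. With the block, they rose from 2847 to 4367 for priming and from 2691 to 4091 for the difference between the doses. With 3 libraries per group, intervals of the carboplatin effect were wide for Iigp1, and Tgtp1 was too shallow for the filter. Without a filter Tgtp1 had no adjusted p under 0.05 in any comparison, and its values for carboplatin in tolerant cells (-5.28, adjusted p = 0.172) and for the mean carboplatin effect (-3.14, adjusted p = 0.067) were within the study's limits.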
